A study of Homo sapiens with 3 samples.

Results

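The RNAs described here come from 9 genes of the human mitochondrial genome. Of these, MT-CO1, MT-CO2, MT-CO3, MT-ATP6, MT-ATP8, MT-ND1, MT-ND4 and MT-ND4L encode proteins, and MT-RNR2 encodes the large ribosomal RNA. They were taken by gene name from a table that sets the control beside each deprived library, and they fill 12 of its 14338 glucose rows and 12 of its 14333 glutamine rows. MT-RNR2 carries only its identifier in the table and was named from a gene name table. Because genes whose rows repeat one set of values were read as sharing a region, the 9 genes stand on 9 distinct regions, of 12665 and 12657 listed in these blocks. MT-CO1 has 3 regions, MT-RNR2 has 2, MT-ND1 and MT-CO2 have 1 each, MT-ATP8, MT-ATP6 and MT-CO3 share 1, and MT-ND4L and MT-ND4 share 1.

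The study worked with 95D, an established human lung cancer line labelled as wild type. It has 3 libraries, 1 for each culture: control, glucose-deficient and glutamine-deficient. Deprived cells were seeded for 24 h and then kept for 48 h in DMEM free of glucose or of glutamine, each with 10% dialyzed serum; control cells were also kept for 48 h, and the sources used here do not say whether their serum was dialyzed. The protocol describes, for all 3, RNA captured from lysate by the full-length long non-coding RNA DAMER, made in vitro and biotinylated, and then depleted of ribosomal RNA, while the titles name plain RNA sequencing; whether the control library is a pulldown cannot be settled from the labels. With 1 library per culture no difference was tested, each difference has no replicate check, and every interval below is a 95% interval for counting error only.

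Human mitochondria carry a small circular genome whose genes for proteins all encode subunits of the respiratory chain or of ATP synthase. Its RNAs are made as long transcripts of each strand, which are cut apart mostly at the tRNAs lying between the genes; MT-ATP8 with MT-ATP6, and MT-ND4L with MT-ND4, stay joined as mRNAs of a pair of reading frames, while MT-CO3 is cut from MT-ATP6 although no tRNA lies between them. The other subunits of these complexes, and the proteins that make, cut and degrade mitochondrial RNA, are encoded in the nucleus and imported.

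The shared regions follow the layout of the genome. In GENCODE release 29 (GRCh38), MT-ATP8, MT-ATP6 and MT-CO3 run without a gap over chrM:8366-9990, and MT-ND4L and MT-ND4 over chrM:10470-12137, all on the plus strand. The following pairs of gene ends are shown because they are the joins at which rows of different genes repeat one value; capitals mark the bases that belong to both genes. MT-ATP8 and MT-ATP6 have 46 bases in common (chrM:8527-8572), MT-ATP6 and MT-CO3 have 1 (at 9207), and MT-ND4L and MT-ND4 have 7 (chrM:10760-10766).
MT-ATP8, chrM:8497-8572: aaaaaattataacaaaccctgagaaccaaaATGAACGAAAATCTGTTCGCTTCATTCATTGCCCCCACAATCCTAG
MT-ATP6, chrM:8527-8602: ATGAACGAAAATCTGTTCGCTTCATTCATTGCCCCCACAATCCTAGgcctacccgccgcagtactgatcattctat
MT-ATP6, chrM:9168-9207: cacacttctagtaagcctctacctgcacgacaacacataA
MT-CO3, chrM:9207-9246: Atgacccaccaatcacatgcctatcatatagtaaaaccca
MT-ND4L, chrM:10730-10766: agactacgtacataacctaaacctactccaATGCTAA
MT-ND4, chrM:10760-10796: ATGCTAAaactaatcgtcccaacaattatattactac
The table gives no coordinates, so where within its gene each region lies is unknown, the value of a shared region cannot be split between its genes, and a shared region does not mean that its genes were on 1 mRNA.

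The deposited values are RPM, fragments scaled to the size of the library. They rise in fixed steps, which gave back the fragments behind them after an offset of 0.5 fragment per region was taken off; 0.5 fragment occurs as a step of its own. By estimates from these steps, which carry the rounding of the deposited values, the control library held about 3781862 fragments, the glucose-deficient 18775817 and the glutamine-deficient 18301611. ATF4 and its pseudogenes, with RNF157, which shares a region with one of them, took 0.0253%, 99.9% and 99.9% of these, which left 3780904, 12936 and 14450 fragments for everything else. Every RPM of a mitochondrial region in a deprived library is therefore set against a total made up almost wholly of ATF4, and the text below gives, beside RPM, values within a library that do not depend on that total. Of the 6 markers of a lung epithelial cancer line that were looked up, VIM (77.7 RPM in the control) and KRT8 (6.48 RPM) are listed, with 0 fragments in both deprived libraries, and KRT18, KRT19, EPCAM and CDH1 are not listed; none of the 7 markers of blood, stromal, endothelial and liver cells is listed.

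In the control library the mitochondrial RNAs were among the regions with most fragments. The sum over the 9 regions was 95135.5 fragments, or 25157 RPM. In the glucose-deficient library the same regions held 88.5 fragments (4.71 RPM without the offset), and in the glutamine-deficient library 98.5 (5.38 RPM). The control was far above both deprived libraries, which lay close together. On the log2(RPM + 1) scale, which understates the difference, the summed level differed from the control by -12.05 (glucose-deficient) and -11.89 (glutamine-deficient). The summed RPM without the offset was 5337-fold lower (4334 to 6651) and 4674-fold lower (3837 to 5755). Glutamine-deficient over glucose-deficient, the ratio was 1.14 (0.848 to 1.54), an interval that includes 1.

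With glucose deficiency all 9 regions were at least 2-fold lower, as were 99.9% of regions that name a gene; with glutamine deficiency all 9 were, as were 11962 of 11965 such regions, which rounds to 100%. These shares are near the members' own, so the count says nothing particular about mitochondrial RNA. Among the rows below the control none differs little: each is lower by at least 31.8-fold under glucose deficiency and 33.9-fold under glutamine deficiency. When ATF4 and its pseudogenes were left out of the library totals, 5 of 9 regions in the glucose-deficient library had a whole interval at least 2-fold below the control, against 0.0835% of regions that name a gene, and 4 of 9 in the glutamine-deficient library, against 0.142%. Such an interval needs many control fragments, and the members are among the deepest regions of the control. The shares over all regions stand for 10 and 17 regions and do not set the members beside regions of like depth. They show no excess of mitochondrial RNA.

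The COX subunits, encoded by MT-CO1, MT-CO2 and MT-CO3, form the catalytic core of cytochrome c oxidase, the last complex of the chain. MT-CO1 (chrM:5904-7445) held 29255 fragments in the control over its regions, 7736 RPM, and it held 13.5 fragments under glucose deficiency and 17 under glutamine deficiency. Its first region had 11392.5 control fragments (3013 RPM), 10.5 under glucose deficiency and 6 under glutamine deficiency. The second had 11124.5 (2942 RPM), 1 and 5. The control intervals of these first and second regions overlap, and those of no other neighbours in the control's order of regions do. The third region had 6738 control fragments (1782 RPM), 2 and 6. In the glucose-deficient library the first region kept 10.3 times as many fragments per control fragment as the second (1.48 to 443), and in the glutamine-deficient library 1.17 times as many (0.298 to 4.85). MT-CO2 (chrM:7586-8269) had 15995.5 control fragments (4229.7 RPM), 15 under glucose deficiency and 14 under glutamine deficiency, a ratio between the deprived libraries of 0.958 (0.428 to 2.13).

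MT-ATP6 and MT-ATP8 encode subunits of the membrane part of ATP synthase. The region they share with MT-CO3 held the most fragments of the 9 regions in all 3 libraries: 22058 in the control (5833 RPM), 34 with glucose deficiency (1.84 RPM) and 33 with glutamine deficiency (1.83 RPM). The ratio of the deprived libraries was 0.996 (0.598 to 1.66). Its level in the 2 deprived libraries thus could not be told apart at this depth.

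MT-ND1, MT-ND4 and MT-ND4L encode membrane subunits of complex I, which takes electrons from NADH. The region of MT-ND4L and MT-ND4 had 18873.5 fragments in the control (4991 RPM), 21 under glucose deficiency and 17.5 under glutamine deficiency. MT-ND1 (chrM:3307-4262) had 5824 in the control (1540.1 RPM), 5 under glucose deficiency and 17 under glutamine deficiency. Between the deprived libraries, MT-ND1 was higher with glutamine deficiency by 3.49-fold (1.24 to 12.1), while MT-ND4L with MT-ND4 gave 0.855 (0.427 to 1.69). MT-ND1 is the 1 region of the 7 with fragments in both whose interval leaves out 1; the intervals are not adjusted for the number of regions, and 5 fragments carry the lower value.

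MT-RNR2 (chrM:1671-3229) is the RNA of the large subunit of the mitochondrial ribosome. Its regions held 1759.5 and 1370 fragments in the control (465 and 362 RPM), the fewest of the members, and 0 in both deprived libraries. A count of 0 allows up to 3 fragments, so the summed RNA was lower by at least 5179-fold under glucose deficiency and at least 5048-fold under glutamine deficiency. At the rate of the mRNAs, 0.962 and 1.07 per 1000, the 3129.5 control fragments of MT-RNR2 would give about 3 fragments. The limit of 3 fragments stands for 0.959 per 1000, just below both rates. The exact intervals for the rate of MT-RNR2 over that of the mRNAs, 0 to 1.25 (glucose-deficient) and 0 to 1.12 (glutamine-deficient), include 1. By these intervals a lower yield of this RNA was not shown in either library, and the libraries were not tested together. MT-RNR1, the small-subunit RNA, is listed too (2088 control fragments, 552 RPM, and 1 fragment in each deprived library). Ribosomal RNA was depleted before sequencing, and how much of the low level of both rRNAs this made was not tested.

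**Figure D1:**
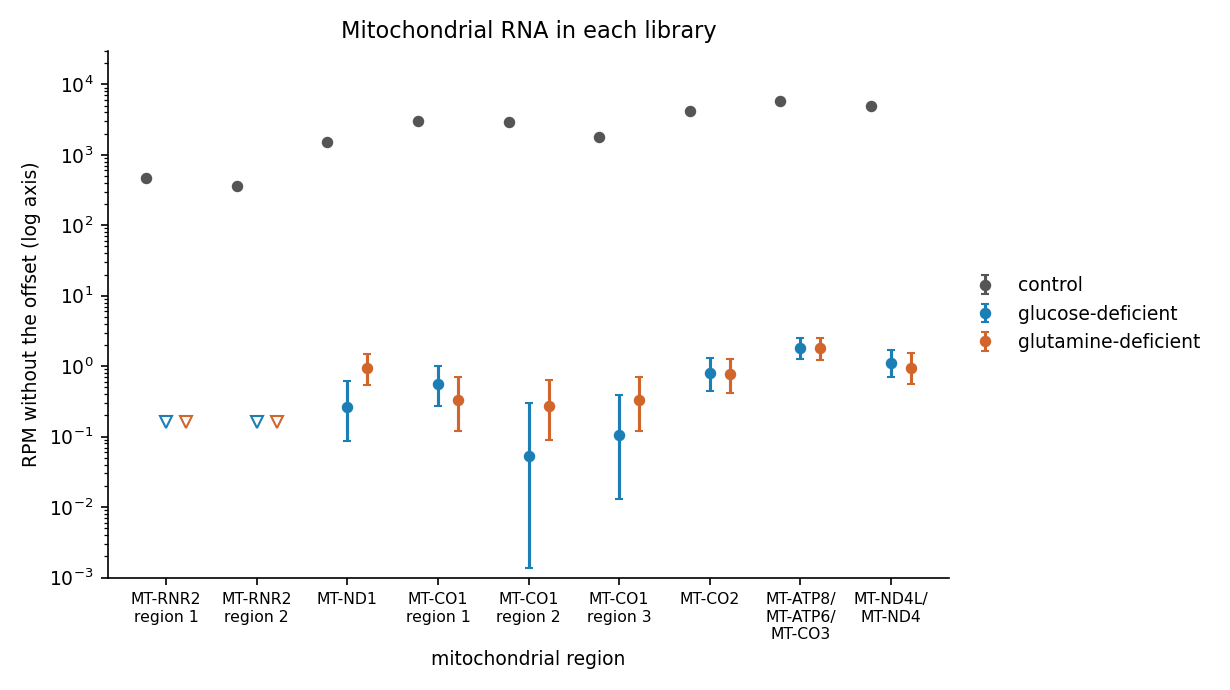
RPM without the offset (log axis) of each of the 9 mitochondrial regions in the control, glucose-deficient and glutamine-deficient libraries; bars are 95% Poisson intervals, and open triangles stand at the limit of 3 fragments where none was found. Every region lies far higher in the control, and the intervals of the deprived libraries overlap in every region; MT-ND1 has 5 and 17 fragments, and MT-CO1 region 2 has 1 and 5.

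Between genes, levels were compared per kilobase of annotated span, since the lengths of the regions are unknown, which makes this a rough guide. In the control, RPM per kb was 6184 for MT-CO2, 5017 for MT-CO1, 3589 for MT-ATP8 to MT-CO3, 2992 for MT-ND4L with MT-ND4, 1611 for MT-ND1 and 531 for MT-RNR2. In the glucose-deficient library RPM per kb was 1.21 for MT-CO2, 1.13 for MT-ATP8 to MT-CO3, 0.687 for MT-ND4L with MT-ND4, 0.518 for MT-CO1 and 0.306 for MT-ND1. In the glutamine-deficient library it was 1.16 for MT-CO2, 1.13 for MT-ATP8 to MT-CO3, 1.00 for MT-ND1, 0.656 for MT-CO1 and 0.590 for MT-ND4L with MT-ND4. MT-CO2 had the highest value of each library, and MT-CO1 moved from the second place in the control to the fourth in both deprived libraries. Neighbours in this order differed beyond counting error in the control, and by less than counting error in both deprived libraries.

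The make-up of the mitochondrial fragments does not depend on the library total. In the control, MT-CO1 made 30.8% of them, MT-ATP8 to MT-CO3 23.2%, MT-ND4L with MT-ND4 19.8%, MT-CO2 16.8%, MT-ND1 6.12% and MT-RNR2 3.29%. In the glucose-deficient library MT-CO1 made 15.3% (8.49 to 24.5) and MT-ATP8 to MT-CO3 38.4% (28.3 to 49.4). In the glutamine-deficient library these were 17.3% (10.4 to 26.2) and 33.5% (24.3 to 43.7). The intervals of both leave out the control's share. By region of MT-CO1, in the glucose-deficient library the first made 11.9% (5.96 to 20.5) against 12.0% in the control, the second 1.13% (0.0286 to 6.14) against 11.7% and the third 2.26% (0.275 to 7.93) against 7.08%. In the glutamine-deficient library they made 6.09% (2.27 to 12.8), 5.08% (1.67 to 11.4) and 6.09% (2.27 to 12.8). The second region alone had an interval below its control share in both. MT-ND1 made 5.65% (1.86 to 12.7) with glucose deficiency and 17.3% (10.4 to 26.2) with glutamine deficiency, and MT-CO2 stayed between 14.2% and 16.9% in all 3 libraries.

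**Figure D2:**
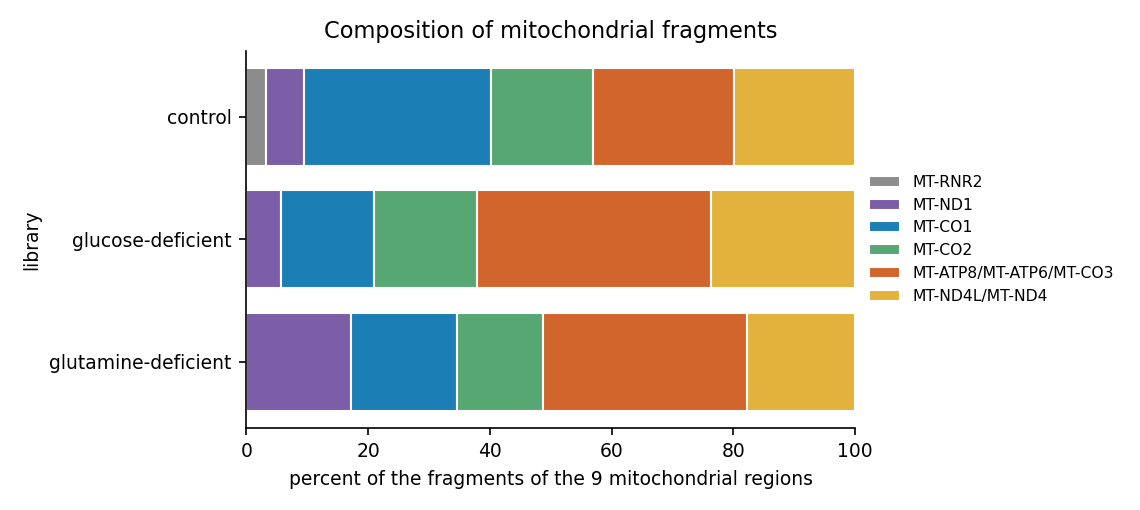
Share in percent (horizontal axis) of each mitochondrial gene or shared region in the fragments of the 9 regions, 1 bar per library. The MT-CO1 part is 30.8% in the control against 15.3% and 17.3% in the deprived libraries, and the MT-ATP8 to MT-CO3 part 23.2% against 38.4% and 33.5%.

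Fragments kept per 1000 control fragments are raw counts of a deprived library over the control, not scaled for library size. They compare regions within the same deprived library and are not retained fractions. On this measure MT-CO1 kept 0.461 (0.249 to 0.782) under glucose deficiency and 0.581 (0.338 to 0.931) under glutamine deficiency. The MT-ATP8 to MT-CO3 region kept 1.54 (1.07 to 2.15) and 1.50 (1.03 to 2.10). Against all other members, MT-CO1 was at 0.405 (0.209 to 0.729) and 0.470 (0.261 to 0.799) of their rate, and MT-ATP8 to MT-CO3 at 2.07 times (1.31 to 3.23) and 1.67 times (1.06 to 2.57). Of the regions of MT-CO1 taken singly, the second alone had an interval that leaves out 1, at 0.0863 (0.00216 to 0.494) with glucose deficiency and 0.404 (0.128 to 0.976) with glutamine deficiency. The first was at 0.990 (0.466 to 1.89) and 0.477 (0.171 to 1.08), and the third at 0.303 (0.0362 to 1.13) and 0.851 (0.304 to 1.92). Both deprived libraries are set against the same control library, and these intervals are not adjusted for the number of regions. MT-ND1 was at 0.918 (0.291 to 2.23) of the others' rate with glucose deficiency and at 3.20 (1.78 to 5.44) with glutamine deficiency, and the intervals of MT-CO2 and of MT-ND4L with MT-ND4 include 1 in both.

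**Figure D3:**
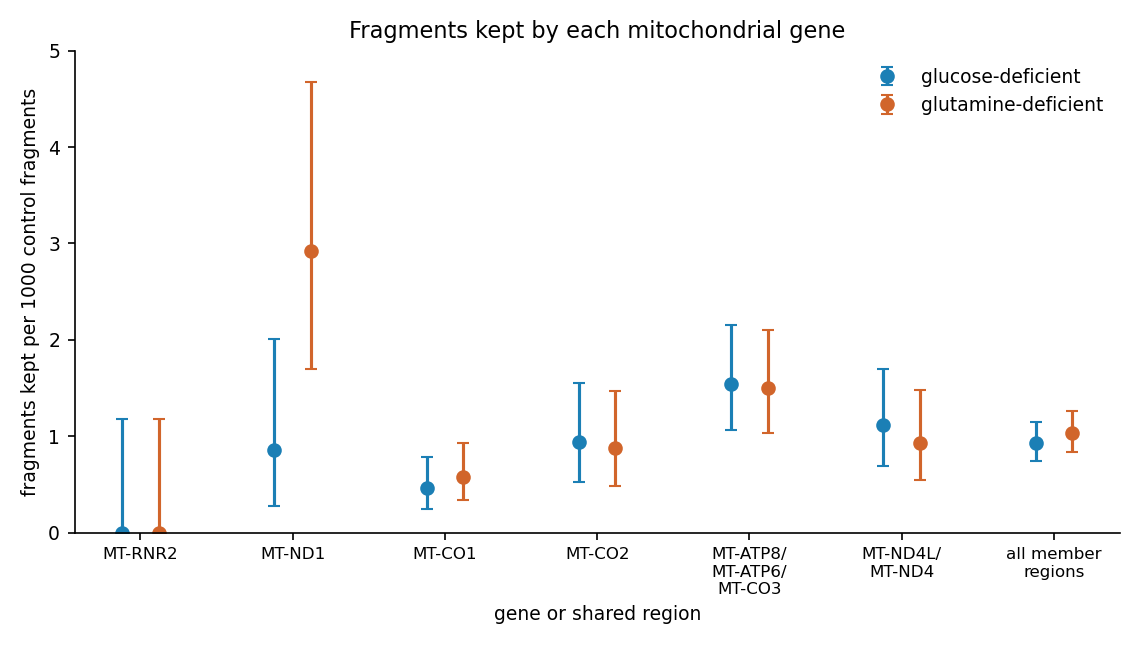
Fragments kept in each deprived library per 1000 control fragments (vertical axis), by gene or shared region and for all 9 regions; bars are 95% intervals for counting error. MT-CO1 lies at 0.461 and 0.581, MT-ATP8 to MT-CO3 at 1.54 and 1.50, and MT-ND1 at 0.859 and 2.92.

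Compared with other RNAs, the mitochondrial ones kept no more than other listed regions with glucose deficiency and more than these with glutamine deficiency. All 9 regions kept 0.930 fragments per 1000 in the glucose-deficient library (0.747 to 1.15) and 1.04 in the glutamine-deficient library (0.841 to 1.26). The other listed regions outside the ATF4 family kept 1.41 (1.33 to 1.50) with glucose deficiency, or 1.09 (1.02 to 1.17) without the few that were higher than in the control. With glutamine deficiency they kept 0.0817 (0.0625 to 0.105), from 61 fragments in 33 of 12644 regions. In the glucose-deficient library the mitochondrial rate was 0.659 of theirs (0.525 to 0.820), or 0.852 (0.676 to 1.06) without the higher regions. In the glutamine-deficient library it was 12.7 times theirs (9.11 to 17.7), or 22.7 times (15.3 to 34.6) without the 2 higher regions. Leaving out higher regions picks them by their deprived value, so those ratios only describe the regions that remain. Every listed row below the control is lower by at least 31.8-fold (glucose-deficient) or 33.9-fold (glutamine-deficient), and how rows were listed is unknown. What part the listing has in the rate of the other regions was not tested.

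Because most listed regions are small, the comparison was repeated, after the data had been seen, on regions at least as abundant in the control as the lowest member (1370 fragments). Outside mitochondria these were 21 regions that name a gene, 1 of them the nuclear copy MTATP6P1. In the glucose-deficient library 17 of the 20 others kept a fragment, 127 fragments in all or 0.900 per 1000 (0.750 to 1.07) against the 0.962 (0.772 to 1.18) of the 7 mitochondrial mRNA regions. Without 9 regions of 1 nuclear RNA locus that is not named here, the other 11 kept 0.457 per 1000 (0.336 to 0.607). In the glutamine-deficient library 0 of the 20 kept a fragment, which allows up to 0.0213 per 1000, while all 7 mitochondrial mRNA regions did, at 1.07 per 1000 (0.870 to 1.30).

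**Figure D4:**
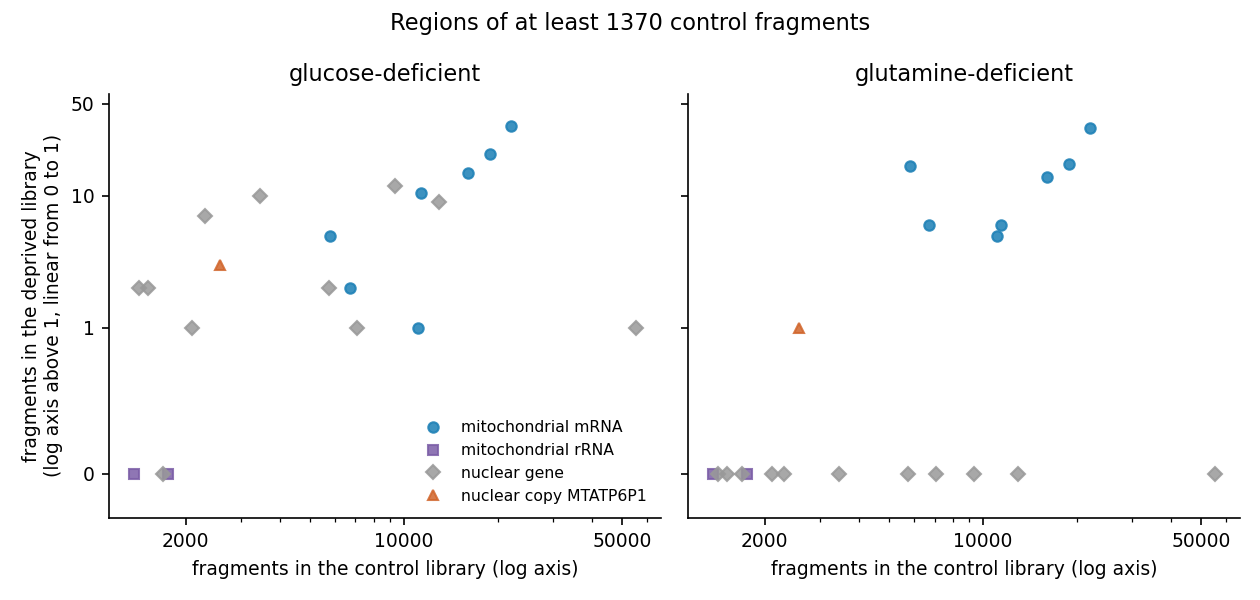
Fragments in the deprived library (vertical axis, linear from 0 to 1 and log above) against fragments in the control (log axis) for regions of at least 1370 control fragments; each point is 1 region, and the 9 regions of the unnamed locus are not drawn. The mitochondrial mRNA regions have 1 to 34 fragments with glucose deficiency and 5 to 33 with glutamine deficiency, where the 11 nuclear gene regions drawn are all at 0.

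The share of mitochondrial fragments depends on what they are counted against. Among fragments of listed regions outside the ATF4 family, the 9 regions made 11.3% in the control, 7.75% (6.26 to 9.45) in the glucose-deficient and 61.4% (53.4 to 68.9) in the glutamine-deficient library. Listed regions, however, hold 22.3%, 8.83% and 1.11% of all fragments outside the ATF4 family in these libraries. Counted against all such fragments, listed or not, the mitochondrial share was 2.52%, 0.684% (0.549 to 0.842) and 0.682% (0.554 to 0.830). By this measure both deprived libraries were lower than the control, and per control fragment the mitochondrial regions kept 3.75-fold fewer (3.04 to 4.67) with glucose deficiency and 3.76-fold fewer (3.09 to 4.63) with glutamine deficiency than all other fragments outside the family. The direction for the glutamine-deficient library thus turns with the denominator. What the unlisted fragments are was not tested, since the table does not hold them.

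**Figure D5:**
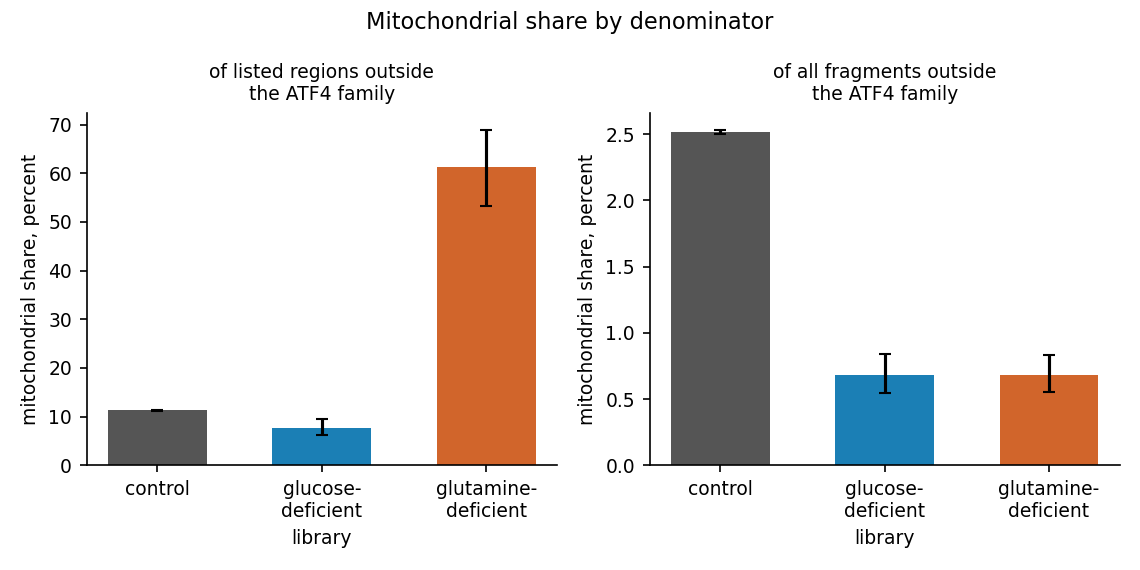
Mitochondrial share in percent (vertical axis) of listed fragments outside the ATF4 family (left) and of all fragments outside it (right), 1 bar per library with 95% binomial intervals; the vertical axes differ. The glutamine-deficient library is highest on the left, at 61.4%, and level with the glucose-deficient library on the right, at 0.682% and 0.684%.

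Between the deprived libraries, 2 of the 9 regions reached 1 RPM in either library and 0 differed by 2-fold or more on the log2(RPM + 1) scale. Of the 8 regions that name a gene and could be compared, 37.5% were at least 2-fold lower and 12.5% at least 2-fold higher with glutamine deficiency. No test across genes was run on this comparison, because each culture has 1 library.

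Nuclear copies of mitochondrial genes can hold reads of the same sequence. Of 404 symbols for such copies and for humanin-like genes, 2 are listed: MTATP6P1 at chr1:633696-634376 and MTND2P28 at chr1:629640-630683, both on the plus strand. MTATP6P1 had 2570 fragments in the control (680 RPM), 3 under glucose deficiency and 1 under glutamine deficiency. MTND2P28 had 142 (37.7 RPM), 1 and 0. MTATP6P1 and MT-ATP6 match at 671 of 681 aligned positions (98.5%). The stretch of 90 bases with the most differences, positions 103 to 192 of both, is shown because it is where these copies are easiest to tell apart; capitals mark the 4 positions that differ.
MT-ATP6, chrM:8629-8718: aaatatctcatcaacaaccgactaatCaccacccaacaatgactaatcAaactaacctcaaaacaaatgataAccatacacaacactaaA
MTATP6P1, chr1:633798-633887: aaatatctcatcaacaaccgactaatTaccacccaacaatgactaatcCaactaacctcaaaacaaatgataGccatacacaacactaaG
The best-scoring copies of MT-CO1 (MTCO1P12, 98.6% over 1543 aligned bases), MT-CO2 (MTCO2P12, 98.0%), MT-ATP8 (MTATP8P1, 97.6%) and MT-ND4 (MTND4P12, 95.8%) are not listed. The sources used here do not say how reads that match both were placed, and its part in the mitochondrial values was not tested.

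The 9 members share their strand, which is not particular to them. All lie on the plus strand of the mitochondrial sequence, as do MT-RNR1, MT-ND2, MT-ND3, MT-ND5 and MT-CYB. GC content of the members ran from 39.6% in MT-ATP8 to 47.7% in MT-ND1, and was not set against that of other genes. Of the 37 genes of the mitochondrial genome, 10 are listed, the 9 members and MT-RNR1. The 5 further protein genes, MT-ND2, MT-ND3, MT-ND5, MT-ND6 and MT-CYB, and the 22 tRNA genes are not listed, so no value can be given for them.

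Nuclear genes that serve the mitochondrial genome were listed at far lower control levels. Of 43 symbols looked up for the upkeep of mitochondrial DNA and for making, processing and degrading its RNA, 9 are listed. All 9 were lower in both deprived libraries, with a median log2(RPM + 1) difference of -3.46 in each. A bound was also taken, as log2 of the RPM ratio without offset or pseudocount, genes at 0 set to 3 fragments. Its medians were -6.01 and -5.98, and it depends on the library totals. Of the 9 listed genes, 8 had 0 fragments under glucose deficiency and 9 under glutamine deficiency. LRPPRC, a protein that binds and stabilises mitochondrial mRNAs, had 71 control fragments (19.0 RPM), 2 and 0, and SLIRP, its partner, had 85.5 (22.7 RPM), 0 and 0. MGME1, a nuclease of mitochondrial DNA, had 155 fragments, 0 and 0. Mitochondrial ribosomal protein genes were listed for 40 of 78, all lower in both (median -3.46 in each, -6.07 and -5.96 at the bound), and 38 and 40 of them had 0 fragments. Nuclear-encoded subunits of the respiratory chain and ATP synthase were listed for 50 of 89, all lower in both (median -3.94 in each, -6.58 and -6.50 at the bound), and 48 and 50 had 0 fragments; ATP5F1B, of the catalytic part of ATP synthase, had 239 control fragments, 0 and 0. Over all 5917 genes in both blocks, 5913 were lower in each, 91.0% and 99.2% had 0 fragments, and the median difference was -3.93 in both (-6.58 and -6.48 at the bound). With nearly all genes at 0 fragments, these medians follow the control level and do not show whether a list changed like all genes. The 50 respiratory chain genes together held 3227.5 control fragments and 2 fragments in the glucose-deficient library (0.620 per 1000). In the glutamine-deficient library they held 0, which at the limit of 3 fragments stands for 0.930 per 1000. That value lies within the interval of the mitochondrial mRNAs (0.870 to 1.30), so a lower rate was not detectable at this depth.

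By Euclidean distance to MT-CO1 in log2(RPM + 1) over the 3 libraries, the nearest genes outside the mitochondrial genome were MALAT1 (1.01), 7SK (1.52), RPPH1 (1.91), RMRP (2.38) and NEAT1 (2.43). MT-ND4L with MT-ND4 (0.68), MT-CO2 (0.89) and MT-ATP8 to MT-CO3 (0.92) lay nearer than any of these, MT-ND1 (2.38) lay among them and MT-RNR2 (3.44) farther. MALAT1, a long nuclear RNA, had 21061 fragments in the control (5569.7 RPM), 23 under glucose deficiency and 0 under glutamine deficiency, against 29255, 13.5 and 17 for MT-CO1. The added 1 RPM compresses differences in the deprived libraries, so the distance stays small although MALAT1 and MT-CO1 part with glutamine deficiency.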

How the data were processed

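RNA sequencing values of 3 libraries of 95D cells were used, 1 per culture, paired reads of 150 nt. Alignment was to hg38 by HISAT2 2.0.5, per the submitters' processing notes; the choice of regions, the annotation and any use of strand are unknown from the sources used here. The values are RPM per the file headers, as the authors deposited them. The glucose column is named in the label of the glutamine-deficient sample, so that sample's own deposited file set the mapping.

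Fragments were recovered as RPM over the step less 0.5, to the nearest 0.5; they are whole for 63.3% of control values and for over 99.9% of deprived values. Rows with equal values for different genes were 1 region where adjacent, or within 6 rows at 20 RPM or more. The table's 691 entries that name no gene stayed out of gene counts. Regions of at least 1 RPM in one of the libraries were compared on log2(RPM + 1) against a ratio of 2. Intervals are exact Poisson, binomial and conditional binomial at 95%; fragments are not independent molecules. A count of 0 was read as up to 3 fragments, a limit below the 3.69 at which the 95% Poisson interval for 0 ends. No p-value was computed. All members are named; the 5 nearest genes were taken by distance to MT-CO1, and up to 4 genes per list by control level. Members and lists were chosen with earlier results of these data known. Sequences, coordinates and lengths are from GENCODE release 29 transcripts, and copies were searched with blastn 2.17.0. The steps were run in Python 3.11.15 with scipy 1.17.1, numpy 2.4.6, pandas 2.3.3 and matplotlib 3.10.9. Recovery of fragments, grouping into regions and intervals were tested on simulated data. The simulated libraries held whole fragments and far smaller differences than those found here, so recovery of 0.5 fragment was not tested.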

Additional observations from a re-analysis of the deposited data

How the results depend on the processing

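No paired analysis was possible because each culture has 1 library, and for the same reason no replicate could be left out. The summed mitochondrial level kept its direction against the control under every alternative run, but its size rests on the scaling. Glucose-deficient against control, the log2 difference of -12.05 became -11.30 with a pseudocount of 5 RPM, -12.38 with the offset taken off, -1.88 with the ATF4 family out of the totals and -1.34 with median-of-ratios scaling, which rests on 23 genes. Glutamine-deficient against control, -11.89 became -11.21, -12.19, -1.88 and -0.89 under the same alternatives. Of the 23 genes of the median-of-ratios scaling, 9 are mitochondrial, and genes of a shared region enter it separately. The members thus help to set the factor they are measured by, and the values under that scaling are no independent check of their size. Between the deprived libraries, 3 regions instead of 0 differed by 2-fold with the ATF4 family out of the totals and also with median-of-ratios scaling, where 7 regions instead of 2 reached the filter; a filter of 5 RPM left no region there. The mitochondrial share of 11.28%, 7.75% and 61.37% (control, glucose-deficient, glutamine-deficient) became 2.516%, 0.0004714% and 0.0005382% of all fragments, and 2.516%, 0.6841% and 0.6817% of all fragments outside the ATF4 family. It became 13.57% in the control without the 10 most abundant nuclear genes, 9.784% and 73.78% in the deprived libraries without listed regions higher than in the control, and 11.52% in the control with MT-RNR1 counted in; the last of these and the shares of all fragments outside the family and without higher regions were chosen after seeing the data. All 27 levels with the offset taken off and all 18 shares of the composition computed from RPM differed by less than their counting error. Depth limits the members: 88.5 and 98.5 fragments carry all values of the deprived libraries.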

Other observations

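Small structured RNAs of the nucleus and cytoplasm with high control levels kept different numbers of fragments in the glucose-deficient library. RPPH1, the RNA of ribonuclease P, kept 12 of 9353 control fragments (1.28 per 1000), while RMRP, the RNA of the related ribonuclease MRP, kept 1 of 7071 (0.141 per 1000). 7SK, an RNA that binds a transcription elongation factor, kept 1 of 55249 (0.0181 per 1000), and RN7SL1, of the signal recognition particle, kept 2 of 5744 (0.348 per 1000). All of these had 0 fragments in the glutamine-deficient library. RN7SL1, 7SK, RPPH1 and RMRP, with MALAT1, are the genes outside mitochondria with the highest control levels among those that may be named here.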
